A study of Mus musculus with 3 samples.

Results

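Genes of the melanocyte, the pigment cell of skin and hair, were examined in the dorsal skin of 3 neonatal mice of an albino strain. The 10 genes were Tyr, Tyrp1, Dct, Pmel, Mlana, Mitf, Kit, Slc45a2, Oca2 and Ednrb, named for their known part in pigmentation, with earlier results of these data known. They were found through the platform annotation, which pairs 19 probe sets with exactly 1 of these 10 symbols, among 34945 probe sets and 18193 genes with a single symbol. A probe set is a group of short probes on the array that read 1 transcript together. Of the 10 genes, 8 had a probe set whose log2 values averaged 5 or more, the minimum for testing, and Slc45a2 and Oca2 did not.

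Melanocytes arise from the neural crest, reach the hair follicle and hand melanin granules to the keratinocytes that build the hair shaft. Mitf encodes the transcription factor that drives the lineage, and the receptors encoded by Kit and Ednrb carry the survival and migration signals of stem cell factor and endothelin 3. Melanin is made in the melanosome by the enzymes encoded by Tyr, Tyrp1 and Dct, on fibrils of the protein encoded by Pmel. BALB/c mice are albino because their tyrosinase is inactive; the cells are known to be present in such skin and to transcribe the pigment genes. In a hair follicle, pigment production and growth of the shaft run together, so the melanocyte genes are set here beside those of the hair shaft.

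All arrays came from female mice of strain BALB/cA aged 4 days, and total RNA of dorsal skin was hybridised to 1 array for each mouse. One group was wild type (uncv +/+, 1 array) and the other was uncv null (uncv -/-, 2 arrays; the mice are called null 1 and null 2 here). All 3 were sisters from heterozygous parents. Uncovered (uncv) is a spontaneous mutation with sparse or missing hair, mapped to Rhbdf2, which encodes iRhom2.

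The authors deposited RMA values on the log2 scale, in which 1 unit is a 2-fold difference. With 1 wild type array, the variance of a gene by itself rests on the 2 uncv null arrays alone. limma draws it towards a value pooled over all tested probe sets. That pooled value weighs more (4.75 prior against 1 residual degrees of freedom). The p-values and SEs are thus not the spread between those 2 arrays for a gene, and they hold no spread among wild type mice. The skin label was checked with markers. All 6 keratinocyte genes (Krt5, Krt14, Krt1, Krt10, Trp63 and Lor) and all 6 fibroblast genes (Col1a1, Col1a2, Col3a1, Dcn, Lum and Pdgfra) passed the minimum. The albino state itself cannot be read from these values. The mean of the 3 control probe sets of the 18S ribosomal transcript was 3.59 in wild type, 7.93 in null 1 and 4.26 in null 2, and the excess of the 3' over the 5' Actb control was 0.66, 1.23 and 0.79 in that order. Null 1 thus stood apart in both measures of RNA. It is also the array in which most melanocyte genes were lowest, and the part of these RNA measures in the values below was not tested. Other measures set other arrays apart. The mean of 9 spike-in control probe sets was 7.41 in wild type, 8.13 in null 1 and 7.95 in null 2. Over 12539 probe sets, the Pearson correlation with wild type was 0.97 for null 1 and 0.954 for null 2. Between null 1 and null 2 it was 0.958.

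The promoters of the 3 genes of the tyrosinase family are shown because their transcripts moved together between the arrays and because they carry the core of the M-box, the known binding site of the Mitf protein. The windows run from 250 bases before to 50 bases after the gene start, 5' to 3' on the strand of the gene, from RefSeq (GRCm38.p6, C57BL/6J). Capitals mark CATGTG, the core of the M-box, or its reverse complement CACATG.
Tyr, chr7:87493463-87493762, minus strand: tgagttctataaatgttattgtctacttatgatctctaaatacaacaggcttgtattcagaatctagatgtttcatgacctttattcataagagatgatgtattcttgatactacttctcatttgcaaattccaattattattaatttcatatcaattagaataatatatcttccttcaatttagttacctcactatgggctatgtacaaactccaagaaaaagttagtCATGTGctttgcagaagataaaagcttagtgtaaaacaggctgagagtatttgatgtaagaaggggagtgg
Tyrp1, chr4:80833963-80834262, plus strand: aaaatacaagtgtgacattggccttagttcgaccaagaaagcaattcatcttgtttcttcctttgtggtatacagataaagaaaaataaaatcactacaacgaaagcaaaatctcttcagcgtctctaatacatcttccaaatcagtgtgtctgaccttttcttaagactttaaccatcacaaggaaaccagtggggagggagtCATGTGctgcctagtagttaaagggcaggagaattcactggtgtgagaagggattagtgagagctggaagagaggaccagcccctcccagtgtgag
Dct, chr14:118052197-118052496, minus strand: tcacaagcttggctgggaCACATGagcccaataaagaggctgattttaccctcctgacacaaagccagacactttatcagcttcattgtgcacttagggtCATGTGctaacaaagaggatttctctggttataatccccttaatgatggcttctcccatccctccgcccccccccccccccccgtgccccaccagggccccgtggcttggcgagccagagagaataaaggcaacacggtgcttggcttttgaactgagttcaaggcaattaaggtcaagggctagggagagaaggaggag
The motif CATGTG, searched on both strands, began 21 bases before the gene start of Tyr and 46 bases before that of Tyrp1. The Dct window held it at 150 bases before the start and, as CACATG, at 232 bases. Of the 7 melanocyte genes matched in the table, 4 held the motif (Oca2 also), and the windows of Mitf, Kit and Ednrb did not. Among all 27025 genes with a window, 15.9% held it in at least 1, and among all 32851 windows of this length 14.2% did. The windows of Tyr and Tyrp1 share 11 bases around it, AGTCATGTGCT, known as the M-box. On either strand these 11 bases were found in 7 of all 32851 windows (0.0213%), those 2 included. At 150 bases before its start, the Dct window read GGTCATGTGCT, which differs from the M-box only at the first base. A match is a stretch of letters and was not tied to binding here.

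The pigment enzymes and melanosome proteins differed between genotypes by less than the spread of the uncv null mice. Wild type lay between the uncv null arrays for each of Tyr, Tyrp1, Dct, Pmel and Mlana, with null 1 lowest and null 2 highest. The smaller difference between genotypes follows from this order and is no separate result. Tyr, the rate-limiting enzyme of melanin synthesis, had values of 5.90 in wild type, 5.27 in null 1 and 6.46 in null 2. The uncv null arrays were therefore 2.28-fold apart, while their mean of 5.86 ± 0.84 (SD, n = 2) was close to wild type. The difference of the means was -0.03 (95% interval from -1.27 to 1.20, limma adjusted p = 0.9996), so the arrays leave room for a change of more than 2-fold either way.

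Tyrp1, which stabilises tyrosinase and acts late in melanin synthesis, had values of 7.32 in wild type, 6.83 in null 1 and 7.74 in null 2. The next probe set gave 6.59, 6.35 and 7.21, and the other gave 6.39, 6.32 and 6.55. All 3 probe sets put the arrays in the same order, though the distance between the uncv null arrays shrank from 0.92 to 0.85 and 0.23. The last is of the type (suffix x) whose probes may also bind other transcripts. The difference of uncv null from wild type was -0.04 for the brightest probe set (95% interval from -1.08 to 0.997).

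Dct, the dopachrome tautomerase, had values of 9.15, 8.95 and 9.51 in wild type, null 1 and null 2. Its uncv null arrays were 1.47-fold apart, the smallest gap of these 5 genes. The difference from wild type was 0.09 ± 0.33 (limma's moderated SE, 1 against 2 arrays).

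Pmel, the fibril protein of the melanosome, had values of 8.72 in wild type, 8.21 in null 1 and 8.87 in null 2. Here wild type was nearer to null 2, and the difference of the means was -0.18 ± 0.35. Mlana, a small melanosome protein that binds the Pmel protein, had values of 6.33, 5.77 and 6.84 in the same order. Wild type lay near the middle, the uncv null arrays were 2.09-fold apart and the difference of the means was -0.03 ± 0.46. None of the 5 genes passed the test (limma adjusted p = 0.9996 for each).

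Both remaining transporter genes were dim. Oca2, which sets the pH of the melanosome, had values of 4.41 in wild type, 3.69 in null 1 and 4.61 in null 2, the same order as the enzymes. The value in null 1 lay beside the median of all probe sets there, 3.70, so no fold is given. Slc45a2, a melanosome transporter, had 4.60, 4.41 and 4.53 by its brighter probe set and 3.45, 3.66 and 3.69 by the other. Its probe sets put wild type at opposite ends. Neither gene was tested, and for comparison the highest value of 9 probe sets for genes of the Y chromosome in these females was 3.65.

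**Figure D1:**
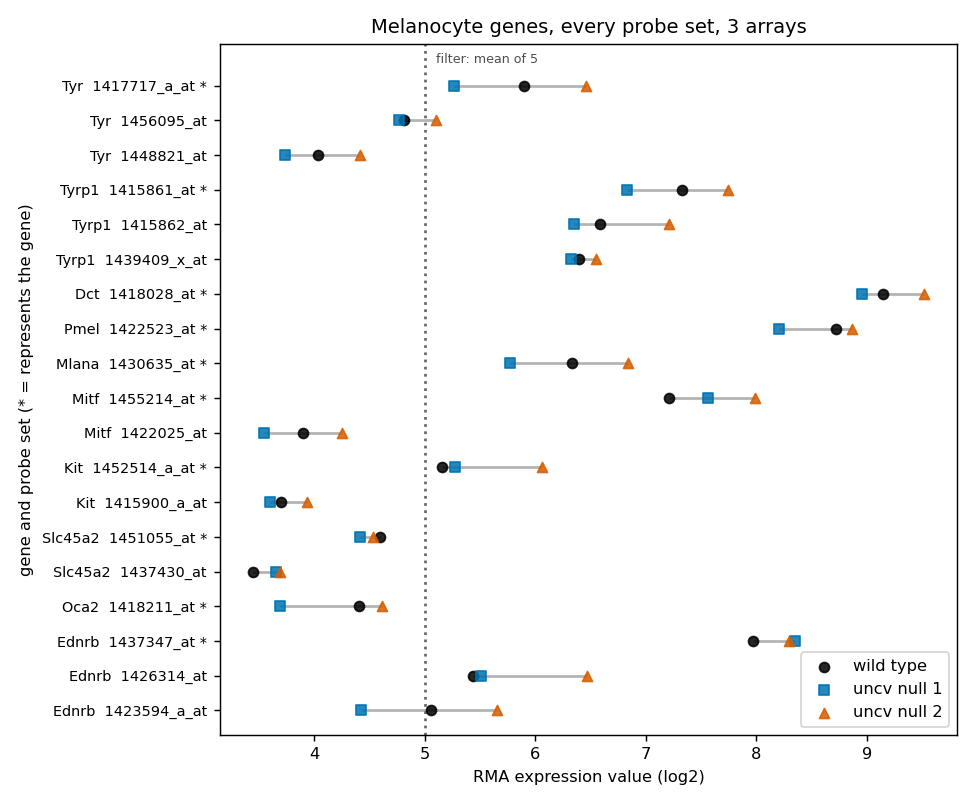
Deposited RMA log2 values (x axis) of all 19 probe sets of the 10 melanocyte genes (rows), with 1 point for each of the 3 arrays and a grey bar for their range; the dotted line marks the minimum mean of 5. Null 2 lies to the right of null 1 in 18 of the 19 probe sets, and wild type lies between them in 13, against 38.4% of all probe sets with a single symbol.

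The lineage factor and the receptors had another order in their brightest probe sets, with wild type lowest. Mitf had values of 7.21 in wild type, 7.56 in null 1 and 7.99 in null 2. Both uncv null arrays were thus above wild type, as in 38.8% of tested genes. The difference of 0.57 ± 0.30 was the largest of the 8 tested genes and had an unadjusted p of 0.11 (limma adjusted p = 0.9996). Its other probe set was dim, at 3.90, 3.55 and 4.25, and showed the order of the pigment enzymes. The Mitf gene has several promoters and the RefSeq table holds 3 windows for it; which transcripts each probe set reads was not examined.

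Kit, the receptor for stem cell factor, had 5.16 in wild type, 5.27 in null 1 and 6.06 in null 2 by its brighter probe set. Null 2 was 1.86-fold above wild type, and null 1 was near it. The dimmer probe set gave 3.70, 3.60 and 3.94. Kit is also made by mast cells, whose markers are given further on.

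Ednrb, the endothelin B receptor, was read by 3 tested probe sets that disagreed. The brightest had 7.96 in wild type, 8.35 in null 1 and 8.30 in null 2, a difference of 0.36 ± 0.26 with the uncv null arrays only 0.05 apart. The next had 5.44, 5.51 and 6.46, with null 2 alone high. The last had 5.05, 4.43 and 5.65, the order seen in Tyr, and its uncv null arrays were 2.34-fold apart. No single direction can be given for Ednrb against wild type beyond its brightest probe set, where it was not called (limma adjusted p = 0.9996).

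Of the 8 tested melanocyte genes, wild type lay between the uncv null arrays in 5, against 34.8% of the 8456 tested genes. The other 3, Mitf, Kit and Ednrb, were higher in both uncv null arrays, against 38.8% of tested genes. None was lower in both, against 26.4%. By limma 0 of the 8 passed the adjusted threshold of 0.05, as did 0.0% of all tested genes, and 0 had an unadjusted p under 0.05, against 2.9%. None lay at least 2-fold from wild type in both uncv null arrays, against 0.52%. No difference between genotypes was called for a melanocyte gene. With so few genes, a share such as 3 of 8 is near its background.

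The larger contrast was between the uncv null mice themselves. In 7 of the 8 genes null 2 was above null 1, against 55.6% of tested genes. In 6 of the 8, namely Tyr, Mlana, Tyrp1, Kit, Pmel and Dct, the gap was at least 0.5 log2 units, a step chosen after the values were seen, against 9.12% of tested genes. Over all 19 probe sets with no minimum, null 2 was higher in 18 (background 47.5%) and by at least 0.5 in 12 (background 7.92%). The median gap of the 8 genes was 0.73, beside 0.04 for all tested genes. It compares 1 mouse with another of the same genotype, so it has no replicate and no test. In whole skin, fewer melanocytes and less RNA in each melanocyte cannot be told apart.

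Hair shaft genes showed the same two-sided picture. All 11 tested hair shaft keratins, the filament proteins of the hair fibre, were higher in null 2 than in null 1, by 0.35 to 0.85. Wild type lay between the uncv null arrays in 10. The shares over all tested genes were 55.6% and 34.8%. Krt81, for example, had 9.33 in wild type, 8.62 in null 1 and 9.34 in null 2. Krt83 had 8.39, 7.74 and 8.47, and Krt33b had 9.15, 8.74 and 9.17. In these 3 genes wild type was close to null 2, as for Pmel. Krt32, a cuticle keratin, was the exception with 7.90, 8.14 and 8.51, where wild type was lowest, as for Mitf.

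The keratin-associated proteins, which bind the keratin filaments together in the shaft, had still wider gaps. Of 34 tested genes 33 were higher in null 2 than in null 1 (background 55.6%), 27 of them by at least 0.5 (background 9.12%). Wild type lay between the uncv null arrays in 22 (background 34.8%), was lowest in 6 (background 38.8%) and was highest in 6 (background 26.4%). Krtap19-1 had 5.83 in wild type, 4.02 in null 1 and 5.22 in null 2, and Krtap5-1 had 6.66, 5.33 and 5.72. Wild type was highest in both. Krtap6-3 had 4.54, 4.43 and 7.17 and Krtap6-2 had 6.62, 6.95 and 8.46. Krtap6-3 reached the minimum mean of 5 only through null 2. Krtap19-1 reached it only because wild type and null 2 were both above 5. Krtap6-3 and Krtap19-1 are counted in the 33 and the 27. Sequence is shared within this family, which leaves single genes uncertain.

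**Figure D2:**
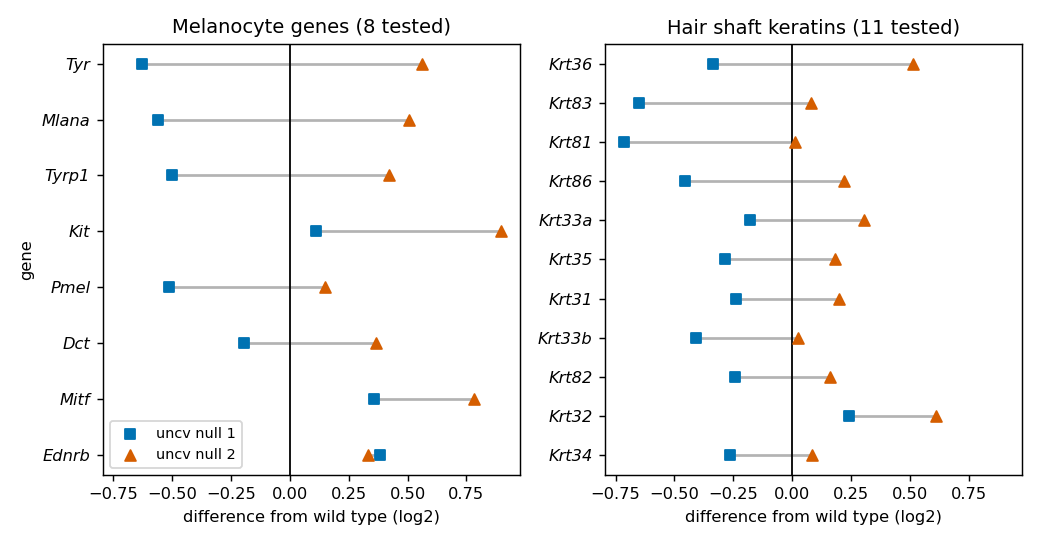
Log2 difference from wild type (x axis, wild type at 0) of null 1 (squares) and null 2 (triangles) for the 8 tested melanocyte genes (left) and 11 hair shaft keratins (right), ordered by the gap between the uncv null arrays. In 5 melanocyte genes and 10 keratins the squares lie left of 0 and the triangles right of it.

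Set side by side, the median difference from wild type in null 1 was -0.35 for the melanocyte genes, -0.29 for the shaft keratins and -0.36 for the keratin-associated proteins. In null 2 the medians were 0.46, 0.18 and 0.37. All tested genes had medians of 0.03 and 0.07. Both differences share the wild type array, so the gap between the uncv null arrays, which does not use it, is given too. Its median was 0.73 for the melanocyte genes, 0.47 for the shaft keratins and 0.73 for the keratin-associated proteins. The melanocyte genes thus exceeded the shaft keratins by 0.26 in this gap and differed from the keratin-associated proteins by -0.0025, with no test possible between single mice. Averaged over both uncv null arrays, the melanocyte genes differed from the shaft keratins by 0.08 and from the keratin-associated proteins by 0.06. These means depend on which array is used, since the first was 0.28 without null 1 and -0.06 without null 2, and the second 0.096 and 0.012. Regulators of the hair matrix did not share the pattern as a list. Their median gap was 0.08 over 9 genes, 5 of them higher in null 2. Ovol1, with 7.33, 7.08 and 8.24, had the order of Tyr, while Gata3, with 6.87, 7.52 and 7.46, was higher in both uncv null arrays, as were Wnt10a (difference 0.43) and Dlx3 (0.36). None of the 9 was called (limma adjusted p over 0.05).

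The rest of the melanocyte pathway was taken from 3 lists. None of the genes in them passed the test (limma, 0 called and 0 with an unadjusted p under 0.05 in each list). Among 7 tested regulators of the lineage, null 2 was above null 1 in 3, with a median gap of -0.13. Sox10, the neural crest factor that activates Mitf, had 5.97 in wild type, 5.99 in null 1 and 5.42 in null 2, so it was lowest where the pigment enzymes were highest. Zeb2 lay at 6.93, 6.70 and 6.39. Erbb3, Tfap2a and Snai2 were higher than wild type in both uncv null arrays by means of 0.32, 0.29 and 0.28, and Tfe3, a relative of Mitf, by 0.17. Pax3, Tfec and Foxd3 were below the minimum.

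Of 30 genes for melanosome assembly and transport, 17 were tested, and null 2 was above null 1 in 9, with a median gap of 0.0065. No gap reached 0.5 in that direction. Bloc1s5, a subunit of a complex that sorts cargo to melanosomes, differed from wild type by 0.59 in null 1 and 0.33 in null 2. Lyst, a regulator of lysosome-related organelles, differed by 0.43 in both. Ap3b1 and Hps3, also of the sorting machinery, stood at means of 0.24 and 0.24, Vps33a at 0.20 and the melanosome motor Myo5a at 0.22. Many of these genes serve lysosomes in all cells. In this list 10 genes were higher in both uncv null arrays and 3 lower, beside the 38.8% and 26.4% of all tested genes.

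Among 7 tested ligands and modifiers, null 2 was above null 1 in 2. Kitl, which encodes stem cell factor, the ligand of Kit, had 8.25 in wild type, 8.04 in null 1 and 7.76 in null 2, so the ligand was lowest in the array where its receptor was highest. Met, the receptor for hepatocyte growth factor, had 5.94, 6.29 and 6.54. Mgrn1, a modifier of coat colour, had 6.70, 6.57 and 6.28. Ece1, which activates endothelins, differed by a mean of 0.24 and Corin by -0.09. Edn1 had 5.47, 5.04 and 5.55, the order of Tyr. Edn3, the ligand of Ednrb, was below the minimum. The cause of any of these differences was not tested.

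**Figure D3:**
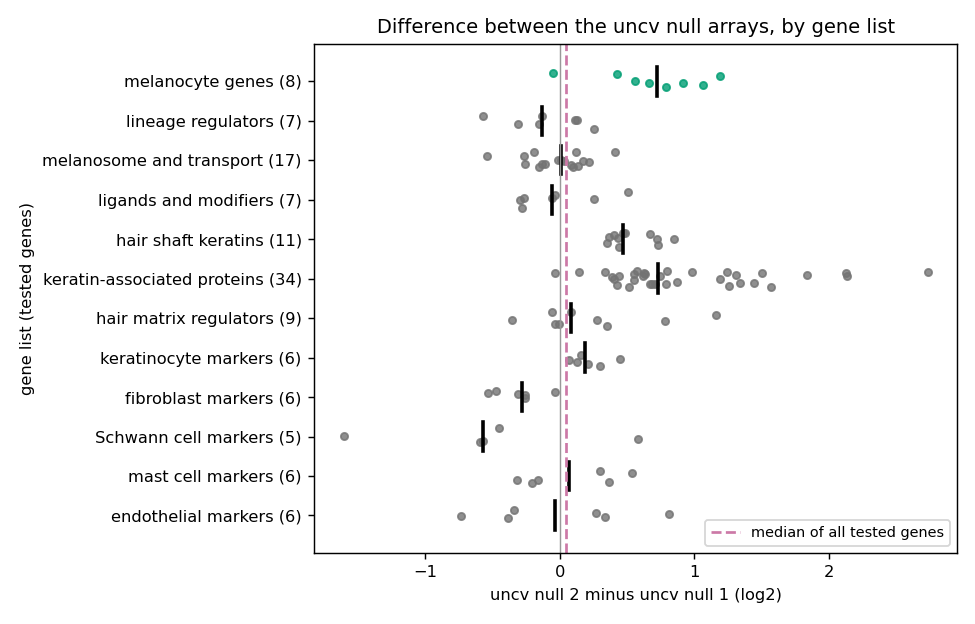
Null 2 minus null 1 on the log2 scale (x axis) for the tested genes of each list (rows, number of genes in brackets); each point is a gene, the black bar is the median of the list and the dashed line the median of all tested genes. Melanocyte genes, hair shaft keratins and keratin-associated proteins have medians of 0.73, 0.47 and 0.73, and the other pigment lists lie near 0.

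Markers of other cells also differed between the arrays, and none of them passed limma's adjusted threshold. The 6 keratinocyte genes were all higher in null 2 than in null 1, with a median gap of 0.18, and their mean log2 level was 11.6, 11.6 and 11.8 in wild type, null 1 and null 2. Krt14 differed most from wild type, by a mean of 0.31, followed by Trp63 at 0.24, Krt5 at 0.06 and Lor at -0.03. The 6 fibroblast genes were all lower in null 2 than in null 1, with a median gap of -0.28 and mean levels of 11.4, 11.3 and 10.9. Col1a1, Lum, Dcn and Col1a2 stood at means of -0.40, -0.36, -0.35 and -0.22. Thus the array with the highest pigment and shaft values had higher keratinocyte and lower fibroblast values, and the part of such tissue make-up in the melanocyte values was not tested.

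Schwann cells share Sox10, Erbb3 and the neural crest origin with melanocytes. Of 10 listed Schwann cell genes 5 were tested, and 4 of them were lower in null 2 than in null 1 (median gap -0.57, mean levels 7.71, 7.38 and 6.85). Mbp, for myelin, had 9.16, 7.88 and 7.29, Mal had 6.37, 6.30 and 4.69, and Pmp22 had 9.79, 9.36 and 8.90, while Egr2 was at 7.26, 7.38 and 7.96. Sox10 is itself one of the 5, and Mbp, Mal and Pmp22 were also lowest in null 2, while Egr2 and the pigment enzymes were highest there. In null 1 Sox10 differed from wild type by 0.03, while Mbp differed by -1.28. The cell source of the Sox10 transcript was not tested.

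Mast cell markers bear on Kit. Of 9 listed genes 6 were tested, with mean levels of 7.39, 7.26 and 7.34, and 3 were higher in null 2 than in null 1. Among the defining proteases, Cpa3 had 8.89, 8.93 and 8.72 and Cma1 had 8.82, 8.90 and 8.58, both lowest in null 2. Tpsb2 had 8.33, 7.36 and 7.73 and Mcpt4 had 7.87, 7.16 and 7.69, both higher in null 2 than in null 1, as Kit was, but highest in wild type. Hdc, at 4.83, 5.68 and 5.98, was the only tested mast cell gene for which wild type was lowest, the order of Kit, and Gata2 differed by a mean of -0.15. The part of mast cells in the Kit values was not tested. Ednrb is also made by endothelium. There, 3 of 6 tested genes were higher in null 2 than in null 1, with mean levels of 5.81, 5.68 and 5.67. Pecam1 had 5.83, 5.42 and 6.23, while Tek had 6.25, 5.65 and 5.31, Kdr 5.31, 5.53 and 4.79, Cdh5 5.15, 5.43 and 5.05, and Cldn5 5.92, 5.80 and 6.14.

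**Figure D4:**
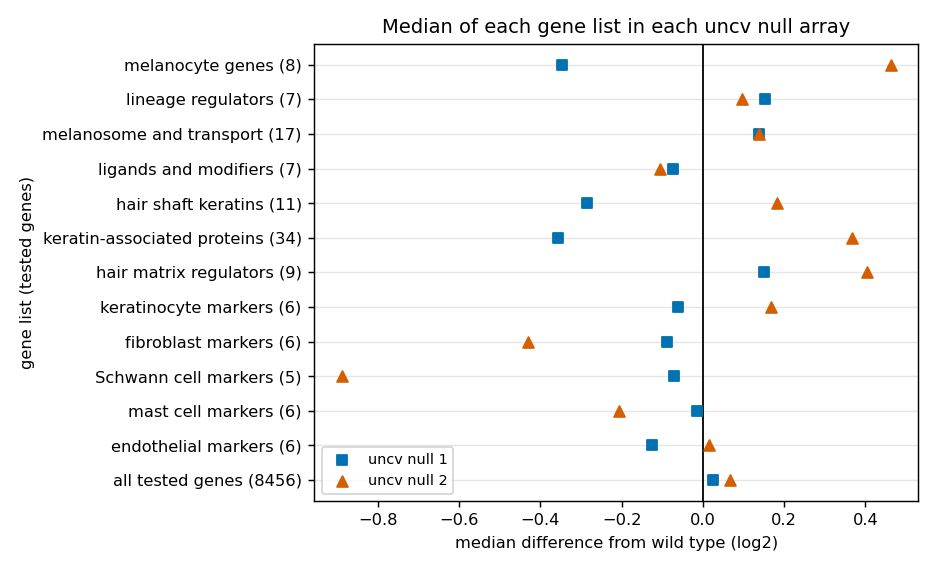
Median log2 difference from wild type (x axis) of the tested genes of each list (rows, number of genes in brackets) in null 1 (squares) and null 2 (triangles). The melanocyte genes have medians of -0.35 and 0.46, while fibroblast and Schwann cell markers are lowest in null 2.

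The genes most like the pigment genes over the 3 arrays were sought by distance. The mean of Tyr, Tyrp1, Dct, Pmel and Mlana differed from wild type by -0.48 in null 1 and 0.40 in null 2. The nearest of the other tested genes, by Euclidean distance over these 2 differences, were Mrps23 (distance 0.0072), Rpe (0.024), Tmem41b (0.032), Chchd3 (0.033) and Ugcg (0.054). Mrps23, for a mitochondrial ribosomal protein, had 6.01 in wild type, 5.52 in null 1 and 6.41 in null 2. These 5 are genes used by most cells, and with 3 arrays a likeness of pattern is shared by many genes.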

How the data were processed

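Total RNA of dorsal skin was measured on 1-colour arrays, 1 for each mouse (1 wild type, 2 uncv null). The authors deposited log2 values made with RMA, which the submitters' processing notes name; the software was not given in the sources used here. RMA corrects background, normalizes between arrays and summarises each probe set, so a change common to all transcripts would be hidden. Detection calls were not used, and the number of arrays limits the precision. The labels and the design text name different extraction reagents.

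Of 45101 probe sets, 64 controls were set aside; 34945 had 1 symbol, 932 several and 9160 none, and 34741 matched the reference by Entrez identifier, which changed 0 symbols. Probe sets with a mean of at least 5 were tested (13559, and 8456 genes), each gene by its brightest probe set. Uncv null was compared with wild type in limma 3.58.1 under R 4.3.3 (lmFit, eBayes without trend, Benjamini-Hochberg over all tested probe sets, threshold 0.05), with 1 residual and 4.75 prior degrees of freedom; wild type is assumed to vary like uncv null. The procedure was tested on simulated data with the same spread in both genotypes, as a check of its estimates. The share of true changes it would call with so few arrays is not given here. The 10 members and 12 gene lists, members included, were chosen with earlier results of these data known. Named were all member probe sets, the 6 (pathway lists) or 4 (other lists) genes of each list with the largest mean difference, and the 5 nearest patterns; others were chosen after their values were seen. Alternatives were 2 scalings, 2 filters, the mean of probe sets, an intensity trend and leaving out each uncv null array.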

Additional observations from a re-analysis of the deposited data

How the results depend on the processing

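limma called 0 probe sets in every fit run (both scalings, both filters, the trend). No paired analysis was possible because the wild type group holds 1 array. Tyrp1 turned from -0.04 to 0.067 with the mean of probe sets, and no other tested member changed sign under a scaling, filter or probe set rule. Leaving out null 1 or null 2 decides the sign of Tyr (0.56 or -0.63), Tyrp1 (0.42 or -0.50), Dct (0.37 or -0.19), Pmel (0.15 or -0.51) and Mlana (0.51 or -0.56); these are values without a test. All 5 kept null 1 below and null 2 above wild type under both scalings. The shaft keratins above wild type in null 2 were 11 of 11, but 9 of 11 after quantile normalization.

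The median of the lineage regulators moved from 0.17 to 0.020 without a filter and to 0.29 at a minimum of 7, and lay from 0.096 to 0.15 with 1 uncv null array left out. That of the melanosome list, 0.12, was 0.15 with arrays centred on their medians, 0.10 after quantile normalization, 0.11 with no filter, 0.117 at a minimum of 7, 0.097 with the mean of probe sets, and 0.138 with either uncv null array left out. The ligands, at -0.09, were at -0.068 with centred arrays and -0.056 at a minimum of 7. Under the scalings, filters and probe set rule, the other list medians and the pigment against hair shaft differences moved by less than the SD between the uncv null arrays. Within that SD, 2 medians near 0 changed sign. The melanocyte genes went from 0.03 to -0.03 with no filter, and the keratin-associated proteins from -0.03 to 0.03 at a minimum of 7. Leaving out null 1 or null 2 turned the sign of several: the melanocyte genes, at 0.03, went to 0.46 or -0.35, the shaft keratins, at -0.05, to 0.18 or -0.29, the keratin-associated proteins, at -0.03, to 0.37 or -0.36, and melanocyte genes minus shaft keratins, at 0.08, to 0.28 or -0.06. Dim genes such as Oca2 are limited by signal over background.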

Other observations

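Melanocyte genes below the minimum were read as values only. Trpm1, a channel of melanocytes, read 4.65 in wild type, 4.64 in null 1 and 5.22 in null 2. Gpr143, a melanosome receptor, had 3.30, 3.46 and 4.03, and Rab27a, which tethers melanosomes to their motor, had 4.82, 4.78 and 5.26. Mlph, the partner of Rab27a, had 4.23, 3.85 and 4.33. Null 2 was the highest array for these 4. In wild type and null 1, Gpr143 lay below the median of all probe sets, 3.70 in each of these arrays. It is counted below among the 2 genes with a gap of at least 0.5. Mc1r, the melanocortin receptor of melanocytes, had 5.05, 5.01 and 4.89, with null 2 lowest. Pax3, a neural crest factor, had 4.28, 3.85 and 3.70, and Edn3, the ligand of Ednrb, had 4.08, 4.26 and 3.47. Of the 19 pathway genes below the minimum, 11 were higher in null 2 than in null 1, 2 of them by at least 0.5, beside 47.5% and 7.92% of all probe sets with a single symbol. In the other direction, null 2 minus null 1 was -0.79 for Edn3, -0.77 for Hps1 and -0.66 for Foxd3.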
